A study of Sus scrofa with 8 samples.

Results

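The S100 calcium-binding proteins were examined in islets of neonatal pigs of 2 ages. A gene was included when its symbol was on a list of 10 (S100A1, S100A2, S100A4, S100A6, S100A8, S100A9, S100A10, S100A11, S100A12 and S100A13) and the array's annotation gave that symbol, and no other, to at least 1 probe set. This took 7 of the 10 genes, each read by 1 probe set, out of 6765 genes that the array names in this way. S100A2 and S100A13 had no probe set under their symbols. The 2 probe sets annotated to S100A6 carry the symbol for 2 gene identifiers, so they were not counted and their values are given separately.

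Islets came from male Duroc/Large white cross pigs of 7 days (4 pigs) and 3 days (4 pigs) of age. By the sample titles there was 1 array per pig. Pancreas of either age was digested with collagenase, and the tissue was kept in Ham's F10 medium for 7 days before the RNA was taken. The labels give no treatment or allele to either age group, so the comparison is one of age at isolation. Each preparation is a mixture of the cell types left after digestion and culture, which limits it as a model of the islet cell itself.

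S100 proteins are small proteins that pair into dimers and bind calcium through EF-hand loops, the helix-loop-helix motif they share with calmodulin. On binding calcium they expose a surface that grips target proteins inside the cell, such as annexins and non-muscle myosin. Several are also released and act as extracellular signals. S100A8, S100A9 and S100A12, the calgranulins, are abundant in neutrophils and monocytes and are ligands of the receptors TLR4 and AGER (RAGE), while S100A1, S100A10 and S100A11 work mostly inside muscle and epithelial cells.

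The Affymetrix porcine GeneChip reports 1 intensity per probe set, a group of short oligonucleotides, in linear fluorescence units that the authors had already scaled. Array medians lay between 172 and 178, and log2 intensities correlated across probe sets with r of 0.942 to 0.957 within an age label (12 pairs of arrays) and 0.930 to 0.940 between labels (16 pairs). All preparations carried the endocrine signature that their label implies: INS measured 19881 to 29628 in 7-day-old arrays and 21868 to 27189 in 3-day-old arrays. In the methods, RNA with a low yield had an additional round of amplification, and the samples concerned are not named there. In bulk RNA such as this, fewer cells of a type and less RNA per cell cannot be told apart.

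All 7 S100 genes had a lower mean log2 intensity in arrays labelled 7-day-old than in arrays labelled 3-day-old. The direction set by the deposited age labels is opposite to the one that the study gives. Of the 108 probe sets that it lists as higher or lower at 7 days, 108 had the opposite sign here. Of these, 0 were of an S100 gene. The arrays are therefore called by their labels, and every sign below would turn if the labels were exchanged. Whether they were exchanged was not tested. Below, genes that fell or rose are those lower or higher in arrays labelled 7-day-old. By limma with Benjamini-Hochberg adjustment over the 21574 probe sets tested (threshold 0.05), 2 of the 7 fell, S100A1 and S100A11, and 0 rose. Over all probe sets tested 10.7% passed the threshold, and of all tested 5.47% passed as lower and 5.21% as higher in 7-day-old arrays. At an unadjusted p under 0.05 there were 3, with S100A9 as the third, against 27.9% of all probe sets tested (13.8% lower), and a plain unpaired test with the same adjustment also passed 2. The median log2 difference of the 7 genes was -0.56, against -0.00078 over all probe sets tested and -0.02 over all genes tested, and 50.1% of all probe sets had a difference below 0. Each of the 7 had reached the 20th percentile of intensity in at least 1 array, the condition for being tested, and S100A8 and S100A12 had done so in 6 of the 8 arrays.

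**Figure D1:**
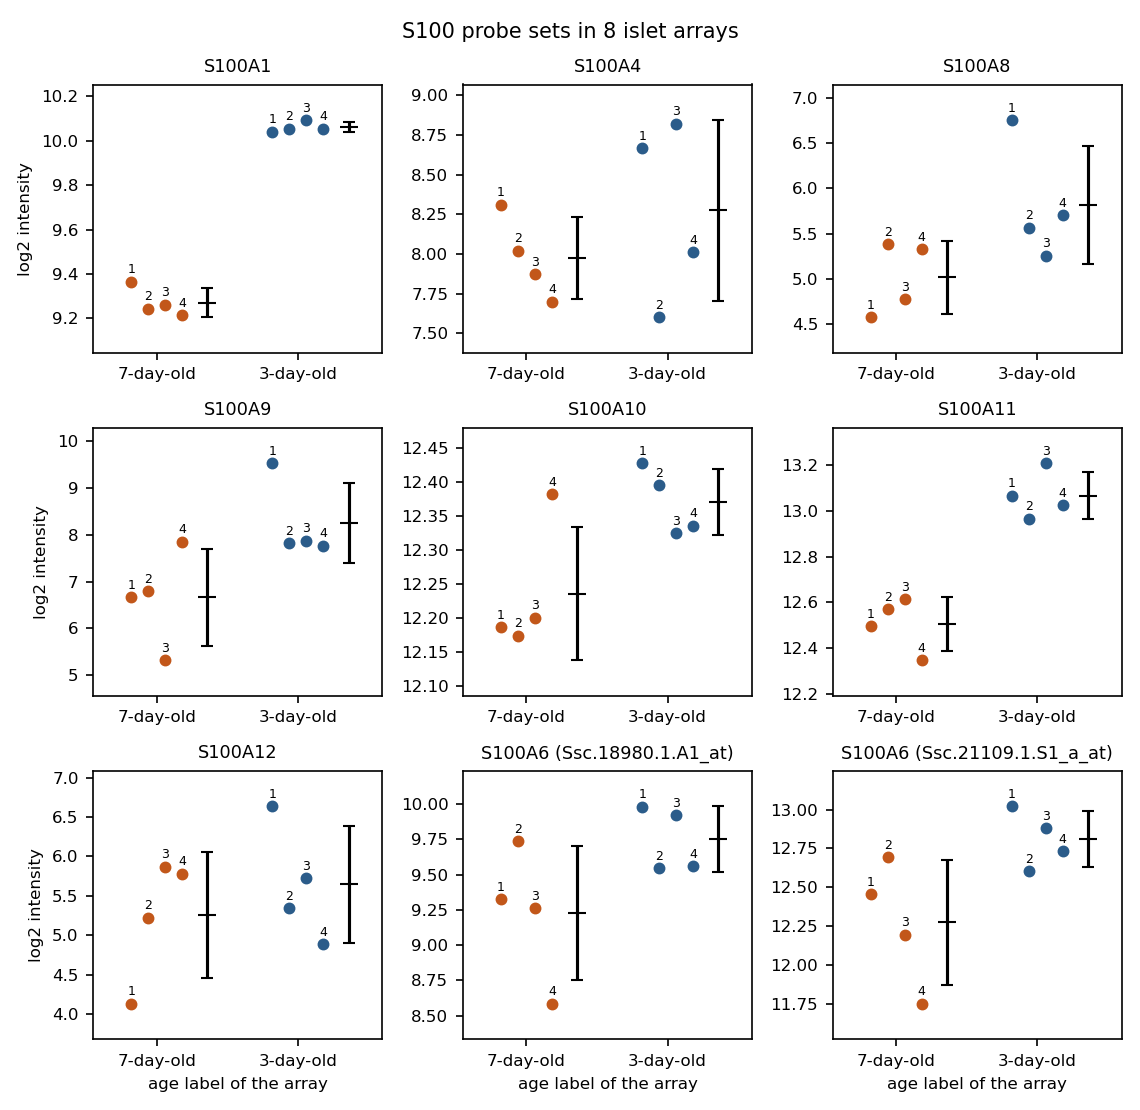
Log2 intensity (y axis, own scale in each panel) of the 7 S100 genes and of both S100A6 probe sets in the arrays labelled 7-day-old (orange, left) and 3-day-old (blue, right). Points are arrays with their replicate number, and bars give the mean ± SD of 4 arrays. The age groups lie apart for S100A1 and S100A11, and 3-day-old replicate 1 is the highest array for S100A8, S100A9, S100A10 and S100A12.

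**Figure D2:**
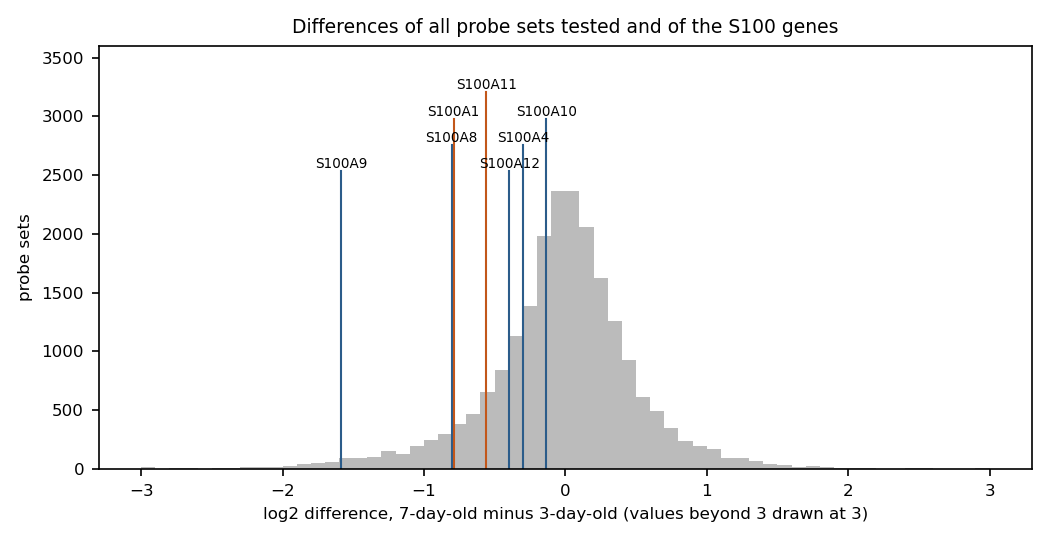
Number of probe sets (y axis) by log2 difference, 7-day-old minus 3-day-old (x axis, bins of the 21574 probe sets tested), with a line for each S100 gene, orange where the adjusted p was under 0.05 and blue otherwise. All 7 lines lie left of 0, from S100A9 at -1.59 to S100A10 at -0.13.

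Among the calgranulins, S100A9 had the largest difference of the 7 genes and S100A12 one of the least certain. S100A9, which pairs with S100A8 to form calprotectin, measured 102, 111, 39.9 and 232 in the 7-day-old arrays and 738, 226, 234 and 218 in the 3-day-old arrays. The groups overlapped in 1 array, 7-day-old replicate 4, and 3-day-old replicate 1 stood at over 3 times the other arrays of its age. Its log2 difference was -1.59 (SE 0.60, 95% interval -2.99 to -0.19), which 1.39% of all probe sets tested lay below, and it did not pass the adjusted threshold (adjusted p = 0.136, limma). The means were 121 ± 80.1 in 7-day-old and 354 ± 256 in 3-day-old arrays (SD, n = 4 each) with medians of 107 in 7-day-old and 230.1 in 3-day-old arrays. Without 3-day-old replicate 1 the log2 difference of S100A9 was -1.16 (adjusted p = 0.240), and without 7-day-old replicate 4 it was -1.98 (adjusted p = 0.0895).

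S100A8, the partner of S100A9 in calprotectin, was far dimmer. It measured 23.9, 41.8, 27.4 and 40.1 in 7-day-old arrays, against 108, 47.4, 38.3 and 52.0 in 3-day-old arrays, where replicate 1 was again the highest of the 8. Of the 3 other 3-day-old arrays, 1 lay inside the range of the 7-day-old ones and 2 above it. Its log2 difference was -0.80 (SE 0.35, 95% interval -1.61 to 0.00092, adjusted p = 0.180, limma), and -0.49 without 3-day-old replicate 1 (adjusted p = 0.258).

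S100A12, the third calgranulin, showed broad overlap. It measured 17.6, 37.4, 58.5 and 55.1 in 7-day-old arrays and 99.3, 40.7, 53.0 and 29.6 in 3-day-old arrays, with 3-day-old replicate 1 the highest and 7-day-old replicate 1 the lowest. The log2 difference of -0.40 had a 95% interval from -1.53 to 0.74 (adjusted p = 0.651, limma), and it was -0.07 without 3-day-old replicate 1 and -0.02 without 7-day-old replicate 1. That interval takes in a fall, no change and a rise, so 4 against 4 arrays did not resolve the direction for S100A12. Exact permutation tests of the mean log2 values (two-sided, smallest possible p 0.0286) gave p = 0.0857 for S100A9, 0.0857 for S100A8 and 0.543 for S100A12.

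Markers of monocytes and macrophages were read beside the calgranulins. Of 14 such markers tested, 3 fell in 7-day-old arrays (21.4%: ENPP1, LY86 and TYROBP) and 0 rose, where 7.15% of the 6545 genes tested were lower and 5.03% higher. LY86 reached the 20th percentile in 2 arrays, none of them 7-day-old, and TYROBP in 5. LY86 was thus tested only through the 3-day-old arrays, and it measured 1.25 to 8.07 in the 7-day-old ones, near the floor. The summed intensity of the 14 markers was 1638 to 2316 in 7-day-old and 2872 to 4262 in 3-day-old arrays, a gap that rests on ENPP1. Without ENPP1, a choice made after the values were seen, the sums overlapped, at 756 to 1114 in 7-day-old and 995 to 2505 in 3-day-old arrays. The highest sum belonged to 3-day-old replicate 1, which was also the highest of all 8 arrays for 9 of the 14 markers. In 3 markers the log2 difference was above 0 without passing: ITGB2 at 0.54 (265 to 294 in 7-day-old and 155 to 243 in 3-day-old arrays, adjusted p = 0.0512), MARCO at 0.75 (adjusted p = 0.255) and ITGAM at 0.72 (adjusted p = 0.685). CD14 and AIF1 did not pass either (adjusted p = 0.127 and 0.196). CD14, the monocyte co-receptor for lipopolysaccharide, measured 34.8, 44.2, 18.1 and 52.1 in 7-day-old arrays and 114, 54.7, 69.9 and 56.2 in 3-day-old arrays. AIF1, a macrophage calcium-binding protein, measured 46.3 to 104 in the 7-day-old arrays, against 338 in 3-day-old replicate 1 and 86.3 to 140.4 in the others of that age. PTPRC, carried by all leukocytes, reached the 20th percentile in 1 array. Among the fits that leave out 1 array, the number that fell was lowest, at 1, without 7-day-old replicate 2, and the number that rose was 1 when 1 of 3-day-old replicates 1 and 4 was left out. Of the neutrophil markers, 4 were measured and 0 passed, with sums of 84.6 to 239 in 7-day-old and 130 to 357 in 3-day-old arrays, and ELANE, LTF and PGLYRP1 reached the 20th percentile in 2, 3 and 1 arrays. The part of either cell type in the calgranulin values was not tested. By flow cytometry, the study counted a larger proportion of macrophages and of leukocytes in islets of 7-day-old pigs than of 3-day-old pigs. That measure is of surface protein on cells, and its relation to the RNA values here was not tested.

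**Figure D3:**
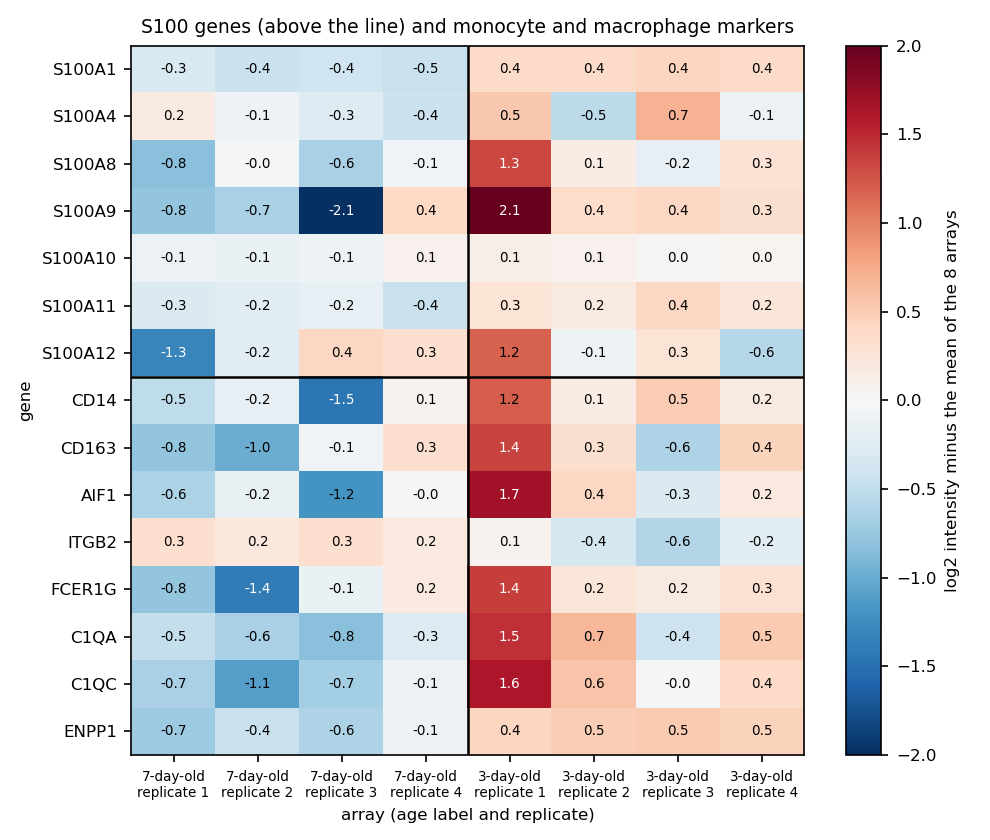
Log2 intensity of each gene in each array minus its mean over the 8 arrays (colour and printed value), for the 7 S100 genes above the line and 8 monocyte and macrophage markers below it. The markers drawn are those of the 14 tested that reached the 20th percentile in at least 7 arrays. MARCO and ITGAM, with differences above 0, did not and are left out. Columns are arrays, 7-day-old on the left and 3-day-old on the right. In 3-day-old replicate 1 the deviation is 2.07 for S100A9, 1.34 for S100A8 and 1.18 for S100A12, while S100A1 stands at 0.38 there, close to the other arrays of its age. Among the markers it is 1.2 for CD14, 1.36 for CD163, 1.68 for AIF1, 1.38 for FCER1G, 1.465 for C1QA and 1.62 for C1QC. It is 0.07 for ITGB2 and 0.43 for ENPP1.

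S100A1 and S100A11 separated the ages without overlap. S100A1, which in heart and skeletal muscle binds the ryanodine receptor and the calcium pump ATP2A2, measured 659.8, 606, 614 and 594 in 7-day-old arrays, against 1054, 1064, 1093 and 1064 in 3-day-old arrays. It was the steadiest of the 7 genes: the SD within an age was 0.05 on the log2 scale, and 0.765% of all probe sets tested had a smaller one. The mean was 618 ± 28.7 in 7-day-old and 1068 ± 16.9 in 3-day-old arrays (SD, n = 4 each), a log2 difference of -0.79 (SE 0.07, 95% interval -0.96 to -0.62, adjusted p = 0.00407, limma), or 1.73-fold higher in 3-day-old arrays. The exact permutation test gave p = 0.0286, the smallest it can give.

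S100A11, which binds annexin A1 and takes part in membrane repair and keratinocyte growth control, behaved alike at a brighter probe set. It measured 5779, 6083, 6275 and 5209 in 7-day-old arrays, against 8578, 8007, 9467 and 8329 in 3-day-old arrays. The highest 7-day-old array lay below the lowest 3-day-old one. The means of 5836 ± 465 in 7-day-old and 8595 ± 627 in 3-day-old arrays (SD, n = 4 each) gave a log2 difference of -0.56 (SE 0.10, 95% interval -0.78 to -0.33, adjusted p = 0.0148, limma), 1.47-fold higher in 3-day-old arrays, with an exact permutation p of 0.0286. These were the 2 of 7 genes whose age groups did not overlap, against 21.2% of all probe sets tested (10.3% lower in 7-day-old arrays). Of 17 alternative settings, S100A1 and S100A11 each passed the threshold in 16.

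S100A10 (p11), which forms a heterotetramer with annexin A2 and serves as a plasminogen receptor at the cell surface, differed little. It measured 4659.7, 4620.0, 4705 and 5337 in 7-day-old arrays and 5508, 5385, 5127 and 5168 in 3-day-old arrays. In 3 of the 4 7-day-old arrays it lay below every 3-day-old array, and replicate 4 lay inside their range. The log2 difference was -0.13 (SE 0.08), with an interval of -0.33 to 0.06 that leaves room for no change and for a fall of up to 0.33 (adjusted p = 0.337, limma; exact permutation p = 0.0857).

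S100A4, a binding partner of non-muscle myosin heavy chain found in fibroblasts and macrophages, varied more within an age than between ages. It measured 317, 259.9, 234 and 208 in 7-day-old arrays and 406, 194, 452 and 258 in 3-day-old arrays, so the lowest and the highest array of all 8 were both 3-day-old (replicates 2 and 3). The log2 difference was -0.30 (95% interval -0.96 to 0.37, adjusted p = 0.548, limma). Leaving out 1 array moved it between -0.12 (without 3-day-old replicate 3) and -0.52 (without 3-day-old replicate 2).

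The S100A6 probe sets had values on the same side. S100A6, or calcyclin, binds CACYBP and annexin A11 and is expressed in epithelial cells and fibroblasts. The brighter probe set measured 5606, 6624, 4686 and 3443 in 7-day-old arrays, against 8306, 6219, 7530.4 and 6801 in 3-day-old arrays, and the dimmer one 641, 853, 615 and 384 in 7-day-old arrays, against 1010.0, 748, 969 and 754 in 3-day-old arrays. In both, 7-day-old replicate 2 overlapped the 3-day-old arrays and replicate 4 was the lowest of the 8. Their log2 differences were -0.54 (95% interval -1.02 to -0.05, adjusted p = 0.143, limma) and -0.52 (95% interval -1.09 to 0.05, adjusted p = 0.211). Neither passed, so that counting them would make 2 of 9 probe sets.

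Of the other S100 genes, 3 were measured. S100B, known from glia and Schwann cells, measured 579, 523, 622 and 694 in 7-day-old arrays, against 950.1, 1234, 977 and 727 in 3-day-old arrays, without overlap. It fell by 0.67 on the log2 scale (95% interval -1.07 to -0.27, adjusted p = 0.0486, limma), just past the threshold. It passed in 7 of 17 alternatives: leaving out any array but 3-day-old replicate 4 ended the call (adjusted p 0.0669 to 0.119), as did no filter on low values (0.0608) and the plain unpaired test (0.0707). For GFAP, another glial gene, the log2 difference was -1.38 (adjusted p = 0.0362, limma) at the brightest of its 4 probe sets tested. With the mean of all probe sets standing for a gene, 1 of S100B and GFAP passed instead of 2. Neither S100B nor GFAP passed when 1 of replicates 1, 2 and 3 of either age was left out. SOX10, another marker of Schwann cells, reached the 20th percentile in 4 arrays (log2 difference 0.13, adjusted p = 0.942, limma). For S100A14, an epithelial member, the log2 difference was -0.25 (adjusted p = 0.343). For S100G (calbindin-D9k), the intestinal calcium buffer, it was 0.16 (adjusted p = 0.628) at the brighter probe set, and the other probe set reached the 20th percentile in 0 arrays.

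**Figure D4:**
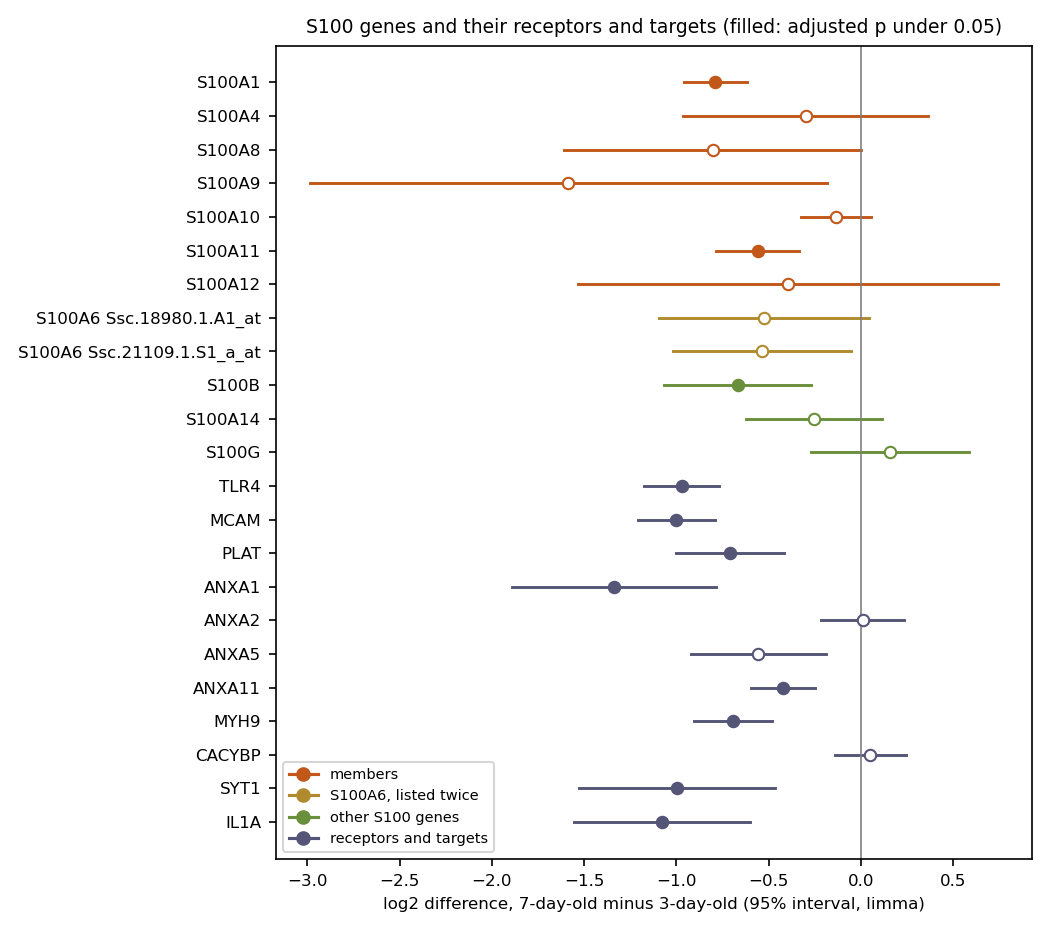
Log2 difference, 7-day-old minus 3-day-old (x axis), with its 95% interval from limma for the S100 genes and for named receptors and targets (rows), filled where the adjusted p was under 0.05. S100A1 and S100A11 have short intervals wholly below 0, that of S100A9 runs from -2.99 to -0.19 with an open symbol, and ANXA2 sits at 0.01.

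Extracellular S100 proteins act through a few receptors, and 3 of 11 measured receptors and extracellular partners fell while 0 rose (27.3%, against 7.15% lower and 5.03% higher over all genes tested). The median log2 difference of the list was -0.13. TLR4, the receptor of calprotectin, measured 229, 232, 231 and 235 in 7-day-old arrays, against 435, 451, 514 and 422 in 3-day-old arrays. The 7-day-old arrays hardly differed among themselves, and the fall was 0.97 on the log2 scale (adjusted p = 0.00385, limma). The study lists this TLR4 probe set as higher at 7 days. TLR4 has 5 probe sets, of which 2 passed, both lower (-0.97 and -1.03). Of the rest, 2 gave -0.66 and -1.34 (adjusted p = 0.112 and 0.147) and a dim one gave 0.12 (adjusted p = 0.945).

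MCAM, an adhesion molecule of vessel walls that binds S100A8 and S100A9, measured 148, 142, 150.1 and 161 in 7-day-old arrays, against 271, 316, 324 and 294 in 3-day-old arrays, a fall of 1.00 (adjusted p = 0.00385, limma). It is also 1 of the 6 pericyte markers measured, 3 of which fell (50%, against 7.15% over all genes tested). PLAT, tissue plasminogen activator, which S100A10 helps to hold at the cell surface, measured 1141, 1062, 1191 and 879 in 7-day-old arrays and 1753, 1546, 1715 and 1962 in 3-day-old arrays, a fall of 0.71 (adjusted p = 0.0161). AGER, the other receptor of the calgranulins, reached the 20th percentile in 1 array, and its log2 difference of 0.89 had an interval from -1.47 to 3.24. No direction for AGER was resolved at this signal. With the mean of all probe sets standing for a gene, 2 receptors and partners passed instead of 3.

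Inside the cell, 5 of 18 measured S100 targets fell and 0 rose (27.8%, against 7.15% lower and 5.03% higher over all genes tested), with a median log2 difference of -0.11. ANXA1, the annexin that S100A11 binds, measured 504, 366, 364 and 539 in 7-day-old arrays, against 1588, 956, 1195 and 817 in 3-day-old arrays, a fall of 1.34 on the log2 scale (adjusted p = 0.0165, limma). The study lists this ANXA1 probe set as higher at 7 days. ANXA2, the partner of S100A10, measured 13336 to 15647 in 7-day-old and 12964 to 15288 in 3-day-old arrays, with a log2 difference of 0.01 (95% interval -0.21 to 0.23, adjusted p = 0.960). ANXA1 thus separated the ages and ANXA2 did not.

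MYH9, the non-muscle myosin heavy chain that S100A4 binds, measured 4191, 4392, 4884 and 4528 in 7-day-old arrays and 6896, 6931, 8002 and 7268 in 3-day-old arrays, a fall of 0.69 (adjusted p = 0.00696, limma). A second, dimmer MYH9 probe set gave -0.34 (adjusted p = 0.851, limma). ANXA11, a partner of S100A6, fell by 0.42 (2306 ± 83.1 in 7-day-old and 3091 ± 125 in 3-day-old arrays, SD, n = 4 each, adjusted p = 0.0167). CACYBP, the other S100A6 partner named here, had a log2 difference of 0.05 (adjusted p = 0.739). IL1A and SYT1, which S100A13 accompanies in release without a signal peptide, fell by 1.08 and 1.00 (adjusted p = 0.0199 and 0.0342, limma). The study lists this IL1A probe set as higher at 7 days. A second IL1A probe set also passed (-1.38, adjusted p = 0.0234, limma). That of SYT1, dimmer, did not (-1.78, adjusted p = 0.232). Neither muscle partner of S100A1 passed: the log2 difference was -0.08 for ATP2A2 (adjusted p = 0.653), and it was 0.09 for RYR2 (adjusted p = 0.832). PLN and TTN reached the 20th percentile in no array and were not tested.

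The count of 5 targets depended on the arrays. It was 2 without 3-day-old replicate 3, and it was 3 when the array left out was 3-day-old replicate 2 or 1 of 7-day-old replicates 1 and 2. SYT1 was lost in 9 of its 17 alternatives and IL1A in 5 of 16. ANXA1, MYH9, MCAM, TLR4 and PLAT each passed in 16 of 17. ANXA5, an annexin bound by several S100 proteins, did not overlap between the ages (3328 to 5319 in 7-day-old and 5427 to 6580 in 3-day-old arrays) but had an adjusted p of 0.0637.

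Calcium-binding proteins with EF-hands outside the S100 family were set beside them. Of 22 tested, 3 fell (13.6%, against 7.15% over all genes tested) and 1 rose (4.55%, against 5.03%), with a median log2 difference of -0.18. LCP1 (L-plastin), an actin-bundling protein of leukocytes, fell by 0.59 (adjusted p = 0.0301, limma), and its 4 other probe sets did not pass. CAPN2, the large subunit of m-calpain, fell by 0.53 (adjusted p = 0.0113), and RCN1, a calcium-binding protein of the endoplasmic reticulum, by 0.46 (adjusted p = 0.0389). A second, dimmer RCN1 probe set gave -0.06 (adjusted p = 0.939, limma). Of 17 alternatives, CAPN2 passed in 16, LCP1 in 10, RCN1 in 9 and NUCB2 in 11. NUCB2, the precursor of nesfatin-1, was the one that rose, at 6739 ± 425 in 7-day-old and 4926 ± 439.7 in 3-day-old arrays (SD, n = 4 each, log2 difference 0.45, adjusted p = 0.0285). The number that fell was 1 when 1 of 3-day-old replicates 1, 2 and 3 or of 7-day-old replicates 1 and 3 was left out. The number that rose was 0 when the array left out was 1 of 3-day-old replicates 2 and 3 or of 7-day-old replicates 1, 2 and 4, and it was 2 without 3-day-old replicate 4.

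Markers of other cells in the preparation also differed between the labels, and their part in the S100 results was not tested. Summed intensities did not overlap between the ages for markers of duct cells (63242 to 69200 in 7-day-old and 75614 to 81772 in 3-day-old arrays, 10 genes), fibroblasts and stellate cells (28457 to 33636 in 7-day-old and 39531 to 56895 in 3-day-old arrays, 12 genes), pericytes (1905 to 2323 in 7-day-old and 3145 to 4153 in 3-day-old arrays, 6 genes), and endothelial cells (733 to 926 in 7-day-old and 1779 to 2279 in 3-day-old arrays, 10 genes), and they did not overlap without the gene of the largest gap either. For 10 lymphocyte markers, of which BLNK fell and CD247 rose, they were 807 to 922 in 7-day-old and 1723 to 2420 in 3-day-old arrays, a gap that BLNK alone made: without it the sums were 478 to 564 in 7-day-old and 391 to 476 in 3-day-old arrays. They overlapped for acinar cells (28954 to 44679 in 7-day-old and 39387 to 48007 in 3-day-old arrays, 6 genes) and for endocrine cells (171573 to 210728 in 7-day-old and 147173 to 183261 in 3-day-old arrays, 14 genes, of which 6 rose and 0 fell). Over all genes tested, 7.15% were lower and 5.03% higher in 7-day-old arrays. The endocrine rises were 42.9% of that list, and they numbered 4 to 6 when 1 array was left out. Of the lymphocyte markers 10% fell and 10% rose. The study lists BLNK, the one that fell, as higher at 7 days. Of the fibroblast markers 6 fell (50%) and 0 rose. That count was 8 without 3-day-old replicate 1 and 3 without any other array. Of the duct markers 3 fell (30%), and 1 did so when 1 of 3-day-old replicates 2 and 3 or of 7-day-old replicates 1 and 2 was left out. S100A6, S100A10, S100A11 and S100A14 are expressed in duct epithelium, and S100A4 and S100A6 in fibroblasts.

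Ratios within an array between 2 S100 genes or an S100 gene and its annexin, chosen after their values had been seen, do not depend on the scaling of the arrays. The log2 ratio of S100A1 over S100A10 was lower by 0.65 in 7-day-old arrays, without overlap between the ages (exact permutation p = 0.0286, two-sided, among 5 ratios computed, the smallest p possible). That of S100A11 over S100A10 was lower by 0.42, also without overlap (p = 0.0286, exact permutation). Both ratios set the 2 genes that passed against the one with the smallest difference, so these p-values are no independent support. For S100A9 over S100A8 the difference was -0.78 with overlap (p = 0.143, exact permutation), for S100A11 over ANXA1 it was 0.78 (p = 0.0571), and for S100A10 over ANXA2 it was -0.14 (p = 0.200).

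Within the ages, the S100 genes did not follow one another as a family. After each age's mean was subtracted, the log2 values of S100A9 and S100A8 had a Pearson r of 0.75 over the 8 arrays, S100A8 and S100A12 one of 0.62, and S100A9 and S100A10 one of 0.70. In S100A8, S100A9 and S100A12, 3-day-old replicate 1 stood high. For S100A9 and S100A10, 7-day-old replicate 4 stood 1.19 and 0.15 above the mean of its age, beside 1.28 and 0.06 in 3-day-old replicate 1. S100A11 and S100A10 had an r of -0.74, and S100A1 and S100A11 one of 0.33. Over the 9534 other probe sets with 1 symbol, those most like S100A9 in this measure were ACTR6 (r = 0.97), CD14 (r = 0.96) and STK26 (r = 0.96). For S100A12 the first was MRC1 (r = 0.96), the macrophage mannose receptor, for S100A1 it was TPM1 (r = 0.98), a tropomyosin, and for S100A11 it was SFTPC (r = 0.98). With 8 arrays and this many candidates, values of this size are a description of the arrays.

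Most S100A genes stand side by side in the pig genome. In the RefSeq annotation of Sscrofa11.1, used here for gene order and not for positions, 50 genes run from S100A1 to S100A10, and S100A8, S100A12 and S100A9 are direct neighbours, as are S100A11 and S100A10 at the far end beyond 33 further genes. S100A1 overlaps S100A13, and the array gave S100A13 no probe set of its own. S100A11 fell and S100A10, next to it, did not pass, while the neighbours S100A8, S100A12 and S100A9 were alike in that none passed. Of the genes in the interval that are not S100 genes, 3 were tested and 0 passed, with log2 differences of -0.10, 0.88 and -1.02 for PPGRP-S, SPRP and IVL (adjusted p = 0.875, 0.0946 and 0.147, limma).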

How the data were processed

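Total RNA of the cultured islets was amplified, labelled with biotin and hybridised to the Affymetrix porcine GeneChip. The table deposited by the authors holds linear intensity values, already scaled: with 2% trimmed from both ends, the mean was equal in all arrays. Which software summarised the probes was not given in the sources read. The methods also describe normalizing probe sets to their medians over samples, which was not done to these values.

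Groups came from the deposited age labels. Intensities under 1 were set to 1 (1528 values) and log2 was taken. Of 23999 probe sets other than the 124 controls, 21574 were tested, those with 1 or more of the 8 arrays at or above that array's 20th percentile. The test was the moderated one of limma (version 3.58.1, R 4.3.3, two-sided, no covariate), with Benjamini-Hochberg adjustment and a threshold of 0.05. Exact permutation tests used scipy 1.17.1 in Python 3.11.15. The code was tested on simulated data. A probe set named a gene when the platform annotation gave 1 symbol (10069 did, 198 had several and 13732 none), and gene IDs were matched to RefSeq for 9961 of them. A gene with several probe sets was read at the one of highest mean. The text names the 7 S100 genes, the other S100 genes, and up to 6 genes past the threshold from each list of partners and EF-hand proteins, with some others that did not pass, chosen after their values were seen, as were the named markers. The S100 genes and all lists were chosen with earlier results of these data known. The number of arrays limits the precision.

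The alternatives were no filter on low values, one at the 50th percentile (4 or more arrays), the methods' unpaired test, an intensity trend with robust variances, median centring, quantile normalization, array weights, an offset of 16, the replicate number as a block, and each array left out in turn.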

Additional observations from a re-analysis of the deposited data

Results flagged for a closer look

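In 2 of 48 groups of 4 arrays examined for the S100 genes and their partners, 1 array stood far from the others of its age by Dixon's ratio (the gap to the nearest array over the whole range, on the log2 scale). Chance gives such a group about 1 time in 20. For S100A9 in the 3-day-old arrays the ratio was 0.941, with replicate 1 at 738 and the other 3 between 218 and 234. For S100A10 in the 7-day-old arrays it was 0.874, with replicate 4 at 5337 and the other 3 between 4620.0 and 4705. The causes were not tested.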

How the results depend on the processing

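Each of the 117 differences of the 7 S100 genes under the alternatives kept its sign, and 115 kept their side of the threshold. The exceptions were S100A1 and S100A11 with the replicate number as a block (replicate block), with adjusted p of 0.0576 and 0.0734. That fit called 0 S100 genes, 0 of them lower, and 0 of all probe sets (limma, 3 and 5264 at an unadjusted p under 0.05). It leaves fewer degrees of freedom, and arrays with equal numbers did not deviate together (correlations of residuals from -0.0135 to 0.00487). Over all probe sets, 3491 passed with an intensity trend and robust variances, and 1008 (without 7-day-old replicate 2) to 1854 (without 3-day-old replicate 4) when 1 array was left out, against 2305. The number of S100 genes past the threshold was 2 whichever array was left out, and the number whose ages did not overlap was 2 to 4, with 4 without 7-day-old replicate 4. Ages lie apart more easily when an array is left out. No share of all probe sets is given for the smaller groups, so these counts cannot be read against the share for all arrays. The stricter filter removed S100A8 and S100A12. The S100A6 probe sets, the gene mean and the overlap under other scalings were alternatives chosen after seeing the data. Signal near the 20th percentile limits S100A8, S100A12 and AGER.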
